A study of Mus musculus with 16 samples.

Results

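The genes described here encode the machinery of regulated exocytosis: SNARE proteins, the factors that prime them, and the calcium sensors that trigger fusion. They were taken by symbol as the members of 12 families, namely the synaptotagmins (Syt), synaptotagmin-like proteins (Sytl), syntaxins (Stx), syntaxin-binding proteins (Stxbp), vesicle-associated membrane proteins (Vamp), the SNAP proteins Snap23, Snap25, Snap29 and Snap47, and the Unc13, Rims, complexin (Cplx), Doc2, Rab3 and Mctp families. Of 24091 genes in the count tables, 75 matched: 25 SNAREs, 17 synaptotagmins, 7 syntaxin-binding proteins, 5 synaptotagmin-like proteins, 5 other C2-domain proteins (Doc2 and Mctp), 4 complexins, 4 Rab3 proteins, 4 Rims proteins and 4 Unc13 priming factors.

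Messenger RNA was sequenced from mice lacking Tff2, the gene of the secreted peptide trefoil factor 2, in the pancreas. The knockout (KO) animals were Pdx1:Cre;Tff2fl/fl, in which the promoter of Pdx1, active in the early pancreatic epithelium, drives Cre, and the controls were Tff2fl/fl, so that both genotypes carried the floxed alleles and the controls had no Cre. At embryonic day 16.5 (E16.5) whole pancreata with the spleen removed were taken from 3 KO and 3 control embryos, whose sex the labels do not give. At 60 weeks of age hand-picked islets, the endocrine part of the organ, were taken from 5 KO and 5 control male mice, 1 mouse per library. Each library is named by its animal number.

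Secretory vesicles fuse when a SNARE on the vesicle (a Vamp protein) zips together with a syntaxin and a SNAP protein on the plasma membrane. Syntaxin-binding proteins hold and guide the syntaxin, Unc13 and Rims proteins prime the vesicle, complexins clamp the partly zipped complex, and synaptotagmins and Doc2 proteins release the clamp when calcium enters. Beta cells use this machinery to release insulin granules, acinar cells use a related set to release zymogen granules, and neurons use it for transmitter release.

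The pancreas libraries held 14866194 to 22699934 counts and the islet libraries 22595400 to 32385042. The 75 genes took 0.232% to 0.279% of the counts of a pancreas library and 0.675% to 0.706% of those of an islet library. The targeted gene went with the labels. Tff2 had 2.70, 9.95 and 1.60 CPM (the count scaled to library size and composition) in KO pancreata 01, 18 and 19, against 38.7, 22.7 and 35.1 CPM in control pancreata 02, 08 and 13. It had 0 to 0.478 CPM in KO islets and 0.977 to 4.70 CPM in control islets. The groups did not overlap in either tissue. On the log2 scale Tff2 differed by -2.80 in pancreata (adjusted p = 0.0297) and by -3.07 in islets (adjusted p = 0.0884, and 0.00963 with DESeq2), by edgeR's quasi-likelihood test with Benjamini-Hochberg adjustment over all genes tested, which is the test behind every adjusted p given here. Without control pancreas 02, 08 or 13 the adjusted p of Tff2 at E16.5 was 0.1496, 0.1078 and 0.0837, and its log2 fold change was -3.89 without KO 18. A gene passed where its adjusted p was under 0.05.

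In control islets the exocytosis genes with the highest level per kb of transcript were Syt13, Cplx2 and Vamp2. Syt13, an atypical synaptotagmin that marks endocrine precursors and islet cells in the mouse, stood at 368 ± 19.3 CPM per kb (SD, n = 5) and made up 19.8% of the summed level of the 75 genes. Cplx2, a complexin, stood at 153 ± 6.00 CPM per kb and Vamp2, the vesicle SNARE of insulin granules, at 109 ± 6.32 CPM per kb. The 5 libraries of each of these did not overlap with those of the next, except that Vamp2 overlapped with Syt4, the fourth in the order.

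Below these, Syt4, a synaptotagmin that does not bind calcium through its first C2 domain, stood at 92.5 ± 12.2 CPM per kb in control islets. The plasma membrane SNARE Snap25 stood at 90.6 ± 3.12 CPM per kb, and granuphilin (Sytl4), which docks insulin granules, at 81.7 ± 5.37 CPM per kb. Syt4 overlapped with Vamp2 above it and Snap25 below it. Syt7, a high-affinity calcium sensor of insulin release, stood at 71.1 ± 2.02 CPM per kb, below every value of Sytl4, and overlapped with Rab3a, a GTPase of granules, at 63.7 ± 4.15 CPM per kb. Stx1a, a plasma membrane syntaxin of neurons and beta cells, stood at 3.67 ± 0.342 CPM per kb.

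Control pancreata at E16.5, which consist largely of exocrine tissue, had another order. Vamp8, the zymogen granule SNARE, led with 107 ± 3.42 CPM per kb (SD, n = 3), followed by Rab3d, a GTPase of zymogen granules, with 87.8 ± 2.18, Vamp3 with 56.3 ± 1.17, the Golgi syntaxin Stx5a with 41.9 ± 3.96 and Stxbp2, a syntaxin-binding protein of non-neuronal cells, with 35.3 ± 0.836 CPM per kb. The libraries of these genes did not overlap from one to the next. Syt13 was the seventh, at 31.0 ± 1.02 CPM per kb, and overlapped with Snap47 above it and Vamp2 below it. Of the 75 genes, 55 exceeded 1 CPM per kb in control islets and 51 in control pancreata, and 34 and 22 exceeded 10 CPM per kb in the same groups.

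Set against control E16.5 pancreata, control islets had 44 of 72 tested members higher and 18 lower, or 86.1% past the threshold, where 85.9% of all 15823 genes tested passed (42.4% higher, 43.6% lower). The members' share was near that of all genes, and their median log2 fold change was 0.57, against -0.01 over all genes tested. Tissue, age, dissection, table and any difference in sex cannot be told apart in this contrast.

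On a CPM scale set over all 16 libraries, Syt4 averaged 387 ± 50.8 CPM in control islets (SD, n = 5) and 3.41 ± 0.327 CPM in control pancreata (SD, n = 3), a log2 difference of 6.82 (SE 0.462, adjusted p = 3.14e-10). Among the genes followed by name, the next were Snap25 (log2 difference 4.87), the priming factor Unc13a (4.49), the calcium sensor Syt5 (4.14) and Rab3b (4.08), all higher in islets. Those furthest below their pancreas level were Rims1, an active-zone scaffold, with a log2 difference of -1.94, the calcium sensor Doc2b (-1.09), Vamp8 (-0.82) and Sytl2 (-0.59). Vamp8 averaged 42.5 ± 1.49 CPM in control islets and 75.1 ± 2.52 CPM in control pancreata on the same scale.

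**Figure D1:**
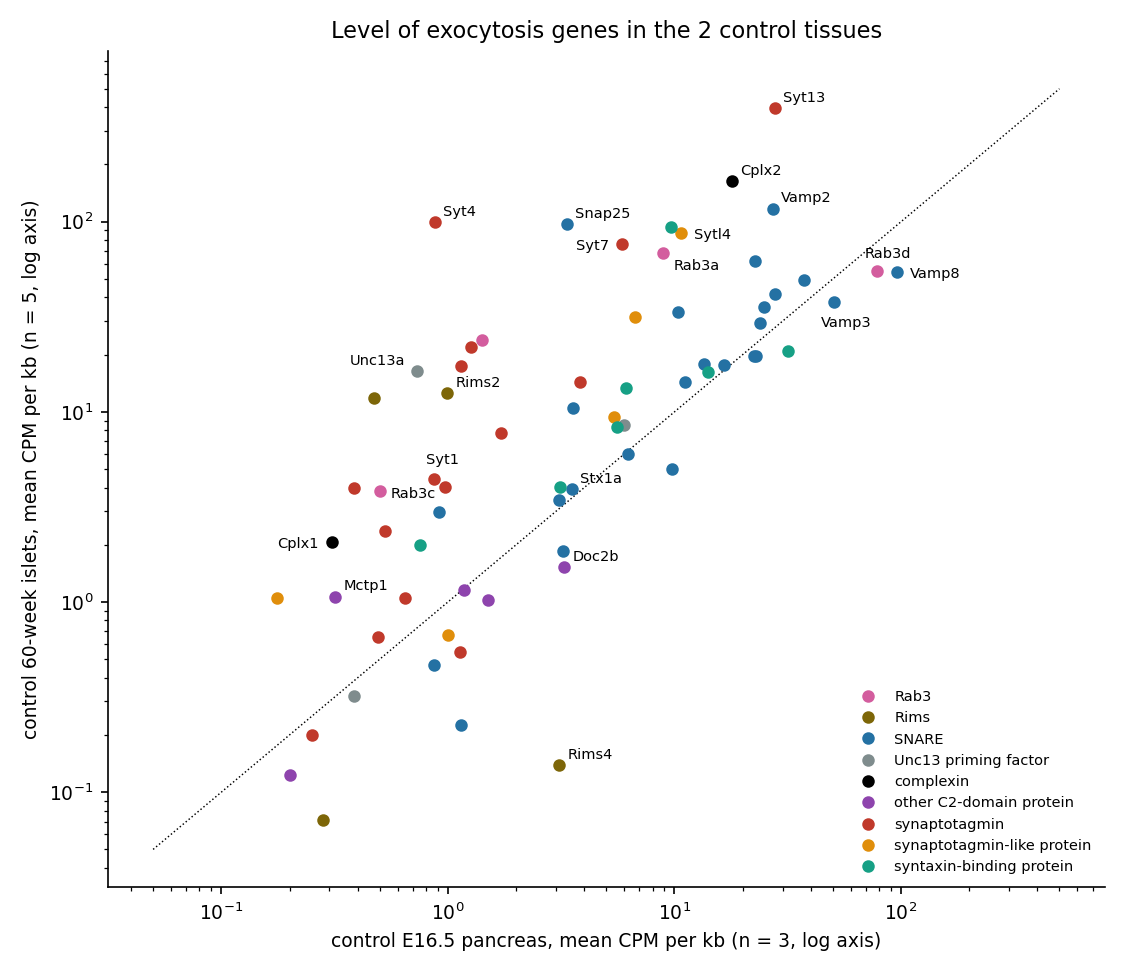
Mean CPM per kb of transcript in control islets (vertical axis, n = 5) against control E16.5 pancreata (horizontal axis, n = 3), both log axes and both scaled over all 16 libraries, for the 69 members with at least 0.05 CPM per kb in both. Each point is a gene coloured by family and the dotted line marks equal levels; Syt4 lies furthest above the line and Rims4 furthest below it.

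Cplx4 had no count in any pancreas library and Syt8 none in any islet library. Low counts kept Cplx3, Cplx4, Syt8 and Syt10 out of the KO comparison at E16.5, and Cplx4, Doc2a, Rims1, Rims4, Stx19, Syt8, Syt10 and Unc13c out of that in islets.

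In E16.5 pancreata, 8 of 71 tested members were higher in KO and 3 were lower, or 15.5% past the threshold, where 6.43% of the 14914 genes tested passed (3.75% higher, 2.68% lower). Among the higher genes were Syt1, Syt4, Syt11, Cplx1, Rab3c, Doc2b and Mctp1, and the lower ones were Syt13, Sytl4 and Cplx2. The median log2 fold change of the 71 members was 0.05, against -0.00 over all genes. The KO and control libraries did not overlap for 19 members that were higher and 10 that were lower in KO, where 31.1% of all genes did not overlap (15.0% higher, 16.1% lower). Without control 02, 08 or 13 no member passed, with 22, 21 and 22 of 71 members and 17.2%, 19.3% and 22.6% of all genes at an unadjusted p under 0.05, and at most 4 of all genes passed; without KO 01, 18 or 19, 12, 12 and 14 members passed. With DESeq2, 17 members passed (13 higher, 4 lower), with limma-voom 5 (2 higher, 3 lower), and with scaling to pan-epithelial genes 48 (47 higher, 1 lower).

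Syt1, Syt4 and Cplx1 had log2 fold changes over 3, and each had one under 3 without KO 01. Syt1 (chr10:108497650-109010975, mm10, minus strand) encodes the fast calcium sensor of synaptic vesicles. It had 74.6, 33.3 and 18.1 CPM in KO pancreata 01, 18 and 19, against 4.60, 4.53 and 4.89 CPM in control pancreata 02, 08 and 13. Every KO library lay above every control, and the KO libraries spanned a wide range while the controls were nearly equal. The difference was 3.17 on the log2 scale (SE 0.493, adjusted p = 0.0207), and 2.46 without KO 01.

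Syt4 (chr18:31437808-31447415, minus strand) had 74.0, 28.2 and 13.4 CPM in KO pancreata 01, 18 and 19, against 4.06, 3.97 and 3.39 CPM in control pancreata 02, 08 and 13. KO 01 again stood highest and KO 19 lowest of the KO libraries, above all controls. Its log2 fold change was 3.34 (SE 0.594, adjusted p = 0.0269), and 2.44 without KO 01. Syt11, a synaptotagmin that does not bind calcium, lies at chr3:88744701-88775138 on the minus strand. It had 84.6, 53.6 and 37.0 CPM in KO pancreata 01, 18 and 19, against 23.1, 21.9 and 19.2 CPM in control pancreata 02, 08 and 13. The groups stood apart by 1.45 on the log2 scale (SE 0.267, adjusted p = 0.0282).

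Doc2b (chr11:75768271-75796060, minus strand), a soluble high-affinity calcium sensor, had 51.2, 30.5 and 27.9 CPM in KO pancreata 01, 18 and 19, against 16.8, 18.6 and 19.9 CPM in control pancreata 02, 08 and 13. The groups did not overlap. Doc2b differed by 0.99 on the log2 scale (SE 0.220, adjusted p = 0.0415), and 0.67 without KO 01. Mctp1 (chr13:76384961-77031810, plus strand) encodes a membrane-anchored C2-domain protein that binds calcium. It had 5.98, 6.16 and 4.40 CPM in KO pancreata 01, 18 and 19, against 2.69, 2.52 and 3.05 CPM in control pancreata 02, 08 and 13. All KO values lay above all controls, by 1.00 on the log2 scale (SE 0.191, adjusted p = 0.0297), and Mctp1 lost its call without KO 18 (adjusted p = 0.0542).

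The SNAREs of the insulin and zymogen granules did not pass. Snap25 had 38.9, 20.9 and 10.99 CPM in KO pancreata 01, 18 and 19, against 7.52, 8.45 and 8.97 CPM in control pancreata 02, 08 and 13. These groups did not overlap, but at 1.51 on the log2 scale Snap25 had an adjusted p of 0.0604 (0.0356 with DESeq2, 0.0481 without KO 01, 0.00903 without KO 19). Stx1a had a log2 fold change of 0.29 (95% interval -0.17 to 0.76), Vamp2 of 0.10 (-0.09 to 0.30), Snap23 of 0.06 (-0.11 to 0.23), Stx4a of 0.02 (-0.13 to 0.18), Vamp3 of -0.00 (-0.18 to 0.18) and Stx3 of -0.10 (-0.28 to 0.09). Vamp8 had 63.3, 79.5 and 71.0 CPM in KO pancreata 01, 18 and 19, against 83.0, 86.9 and 81.8 CPM in control pancreata 02, 08 and 13, which is -0.24 on the log2 scale (adjusted p = 0.127, and 0.0491 without KO 18).

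The 2 complexins tested moved in opposite directions. Cplx1 (chr5:108518554-108550027, minus strand), the complexin of fast synapses, had 11.7, 5.96 and 2.32 CPM in KO pancreata 01, 18 and 19, against 0.775, 0.728 and 0.747 CPM in control pancreata 02, 08 and 13. Cplx1 differed by 3.14 on the log2 scale (SE 0.573, adjusted p = 0.0278), and 2.44 without KO 01. Cplx2 (chr13:54371349-54383917, plus strand), the more abundant complexin in both tissues, had 76.0, 71.8 and 64.1 CPM in KO pancreata 01, 18 and 19, against 101.2, 92.9 and 101.3 CPM in control pancreata 02, 08 and 13. All KO libraries lay below the controls, at -0.48 on the log2 scale (SE 0.0756, adjusted p = 0.0210).

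Of the 4 Rab3 genes, which encode GTPases on secretory vesicles, 1 passed. Rab3c (chr13:110054187-110280996, minus strand) had 47.1, 24.8 and 10.8 CPM in KO pancreata 01, 18 and 19, against 5.61, 4.70 and 4.31 CPM in control pancreata 02, 08 and 13. Its log2 fold change was 2.49 (SE 0.480, adjusted p = 0.0298), and 1.86 without KO 01. Rab3b had 1.40 (adjusted p = 0.0744, and 0.0108 without KO 19), Rab3a 0.05 (adjusted p = 0.885) and Rab3d -0.28 (adjusted p = 0.0869) as log2 fold changes. No Stxbp, Unc13 or Rims gene passed: Unc13a had 0.88 (adjusted p = 0.0882, and 0.0406 without KO 19), Unc13b -0.02, Rims1 0.83 (adjusted p = 0.105, and 0.0432 without KO 18), Rims2 0.33 and Stxbp2 -0.23 (adjusted p = 0.0776).

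The other 2 members that were lower in KO belong to the synaptotagmin and synaptotagmin-like families. Syt13 (chr2:92915101-92956051, plus strand) had 76.5, 69.0 and 68.9 CPM in KO pancreata 01, 18 and 19, against 112, 116 and 120 CPM in control pancreata 02, 08 and 13. The spread within each group was small beside the gap, and the log2 fold change was -0.70 (SE 0.0630, adjusted p = 0.0116). Sytl4 (chrX:133936385-133981812, minus strand) had 47.1, 40.0 and 39.5 CPM in KO pancreata 01, 18 and 19, against 57.9, 55.4 and 67.1 CPM in control pancreata 02, 08 and 13. Sytl4 differed by -0.51 on the log2 scale (SE 0.0987, adjusted p = 0.0300). It lost its call without KO 18 (adjusted p = 0.0547), without KO 19 (0.0615) and with library totals as the scaling (0.0582).

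Syt7, described above, did not pass at E16.5. It had 44.8, 35.3 and 32.5 CPM in KO pancreata 01, 18 and 19, against 45.6, 43.9 and 47.02 CPM in control pancreata 02, 08 and 13, which is -0.27 on the log2 scale (adjusted p = 0.182, and 0.0181 without KO 01). Syt9 had a log2 fold change of 0.83 (adjusted p = 0.0937), Syt5 of 0.87 (0.127), Syt16 of 0.71 (0.228) and Syt14 of 0.16 (0.442). Sytl2 stood at -0.07 and Mctp2 at -0.08.

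**Figure D2:**
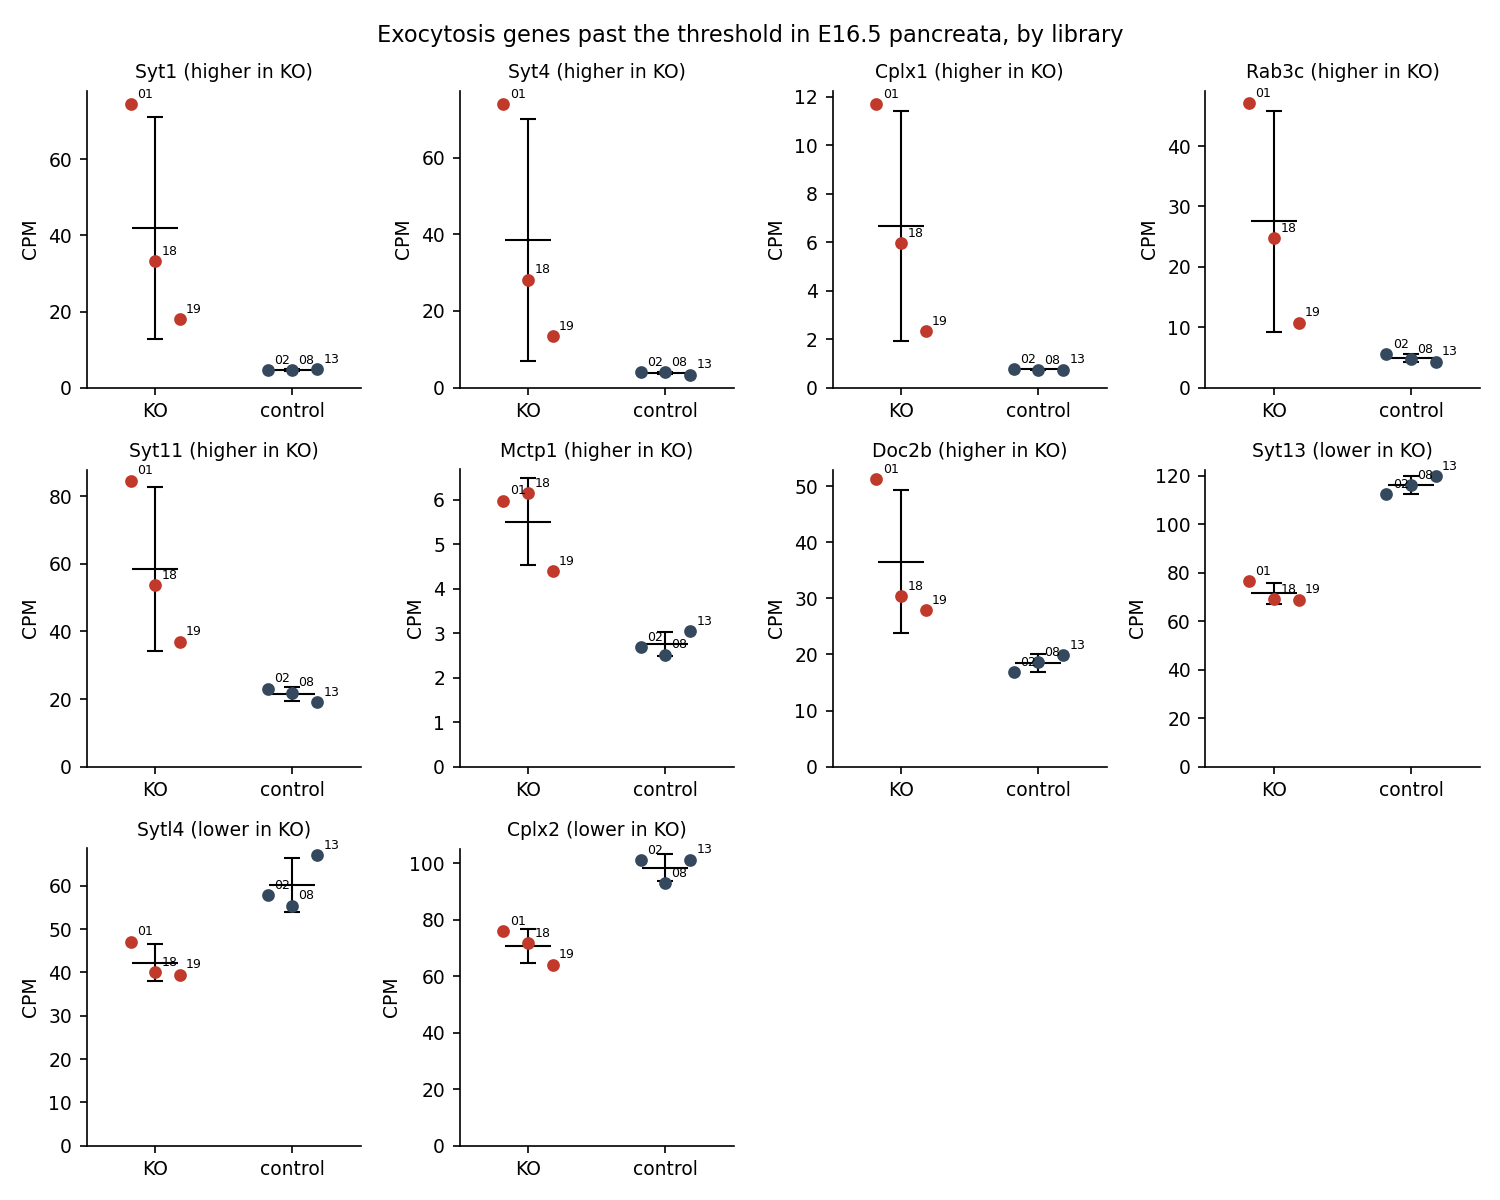
CPM (vertical axes from 0) of 10 members past the threshold in the 3 KO and 3 control pancreata, each point a library named by its animal number, with the mean as a line and the SD as bars. KO library 01 is highest among the KO libraries in 6 of the 7 plotted genes that are higher in KO, and the 3 genes that are lower in KO have little spread within groups.

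Start-site sequence was read for these members to show what lies at their promoters. RefSeq promoter windows (GRCm38.p6, 250 bases before to 50 after the start) were found for 57 of the 75 members, and 3 of the 11 genes past the threshold have a window whose start equals that of the deposited tables. They are printed because Cplx1 and Syt1 were among the largest changes and Sytl4 was one of the 3 lower genes. Capitals mark matches of the GC box GGGCGGG or the CCAAT box on either strand, and the sequences run 5′ to 3′ on the gene's strand, at chr5:108549978-108550277 (minus strand) for Cplx1, chr10:109010926-109011225 (minus strand) for Syt1 and chrX:133981763-133982062 (minus strand) for Sytl4.
Cplx1: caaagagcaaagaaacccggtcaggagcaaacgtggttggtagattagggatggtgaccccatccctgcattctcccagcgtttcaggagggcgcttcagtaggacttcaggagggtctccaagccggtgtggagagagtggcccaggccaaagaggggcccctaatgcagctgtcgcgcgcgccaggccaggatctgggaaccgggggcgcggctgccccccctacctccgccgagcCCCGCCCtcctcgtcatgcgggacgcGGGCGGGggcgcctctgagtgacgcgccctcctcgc
Syt1: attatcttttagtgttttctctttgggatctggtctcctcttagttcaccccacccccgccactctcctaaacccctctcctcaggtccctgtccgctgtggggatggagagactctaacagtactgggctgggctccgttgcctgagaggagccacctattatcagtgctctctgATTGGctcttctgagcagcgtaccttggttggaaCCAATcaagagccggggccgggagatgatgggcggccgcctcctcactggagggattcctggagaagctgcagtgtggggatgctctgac
Sytl4: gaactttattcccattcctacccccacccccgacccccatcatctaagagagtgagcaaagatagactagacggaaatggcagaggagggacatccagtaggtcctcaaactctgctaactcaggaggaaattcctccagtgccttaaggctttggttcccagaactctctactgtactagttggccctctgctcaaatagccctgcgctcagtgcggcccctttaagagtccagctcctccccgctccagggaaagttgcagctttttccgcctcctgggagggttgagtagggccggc
The Cplx1 window held 2 GC boxes, the Syt1 window 2 CCAAT boxes, and the Sytl4 window no match. Of the 69 windows of members 47.8% held a GC box, against 25.6% of 32851 RefSeq windows, and the median GC content was 61.3% in member windows and 52.7% in all. All motifs were searched on both strands. The CCAAT box was in 31.9% of member windows and 37.4% of all windows, the TATA box (TATAAA) in 4.35% and 13.6%, and the E-box CAGATG in 7.25% and 17.2%. The left part of the RE1 element (CAGCACC) was in 10.1% of member windows and 7.14% of all windows. The 7 members with it include Mctp1, whose window has another start than the deposited tables (76579597 against 76384961). The right part of the RE1 element (GGACAGC) was in 8.7% and 6.56%, and both joined in 0% and 0.0365%.

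Markers of sympathetic neurons moved with the genes that were higher in KO. Of 18 such markers, 16 were higher in KO pancreata and none were lower, and their summed level was 1472, 708 and 385 CPM in KO pancreata 01, 18 and 19, against 177, 159 and 171 CPM in control pancreata 02, 08 and 13. Dbh, an enzyme of noradrenaline synthesis, averaged 52.4 ± 39.3 CPM in KO and 0.273 ± 0.118 CPM in control pancreata (SD, n = 3 each). KO 01, the highest for these markers, was also the highest for 6 of the 7 members named above as higher in KO, and KO 19, the lowest, was the lowest for all 7. The groups overlapped for Schwann and enteric neural markers, with summed levels of 288 to 379 CPM in KO and 285 to 353 CPM in control pancreata, 3 of 10 being higher and 1 lower. Of 8 smooth muscle and pericyte markers, 4 passed as higher and none as lower, with sums of 516 to 672 CPM in KO and 424 to 503 CPM in control pancreata. In this list 6 had a log2 fold change above 0 and 2 below 0. The groups overlapped for the pericyte markers Rgs5 (68.5 to 97.1 CPM in KO, 82.8 to 101 CPM in control) and Pdgfrb (99.2 to 130 CPM in KO, 120 to 138 CPM in control). Of 10 macrophage and lymphocyte markers 1 was higher, and the sums overlapped, at 310 to 602 CPM in KO and 330 to 407 CPM in control pancreata. The part of these cells in the higher members was not tested.

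Markers of endocrine and of epithelial cells were lower in KO, as were Syt13, Sytl4 and Cplx2. Of 20 islet endocrine markers, 14 were lower in KO and none were higher, and their summed level was 1586 to 2342 CPM in KO and 3340 to 4255 CPM in control pancreata. Of 20 pan-epithelial genes 14 were lower, with sums of 2527 to 2624 CPM in KO and 3174 to 3682 CPM in control pancreata, and of 15 acinar markers 1 was lower, with sums of 55434 to 103112 CPM in KO and 111237 to 130874 CPM in control pancreata. Of 8 duct markers 3 were lower and 1 higher, with sums of 884 to 1038 CPM in KO and 1274 to 1322 CPM in control pancreata. Of 10 endothelial markers 2 were lower and none higher, with sums of 703 to 933 CPM in KO and 925 to 1195 CPM in control pancreata. Among the KO libraries, Syt13, Sytl4, Cplx2 and the endocrine sum stood highest in KO 01 and lowest in KO 19. However, KO 18 and KO 19 were nearly equal for Syt13 (68.97 and 68.9 CPM) and Sytl4 (40.0 and 39.5 CPM). The acinar, duct and endothelial sums were lowest in KO 01, and the pan-epithelial sum was highest in KO 19. The part of these cell types in the lower members was not tested. In bulk tissue fewer cells of a type and less RNA per cell cannot be told apart. Scaled to the pan-epithelial genes, which raised the median log2 fold change of all genes by 0.41, Syt13 still passed (log2 fold change -0.29, adjusted p = 0.0216), while Cplx2 (-0.07, adjusted p = 0.572) and Sytl4 (-0.10, adjusted p = 0.491) did not. This scaling does not account for endocrine cells, whose 20 markers had a median log2 fold change of -0.89 in the main fit. Whether Syt13 changed apart from these cells was not tested.

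**Figure D3:**
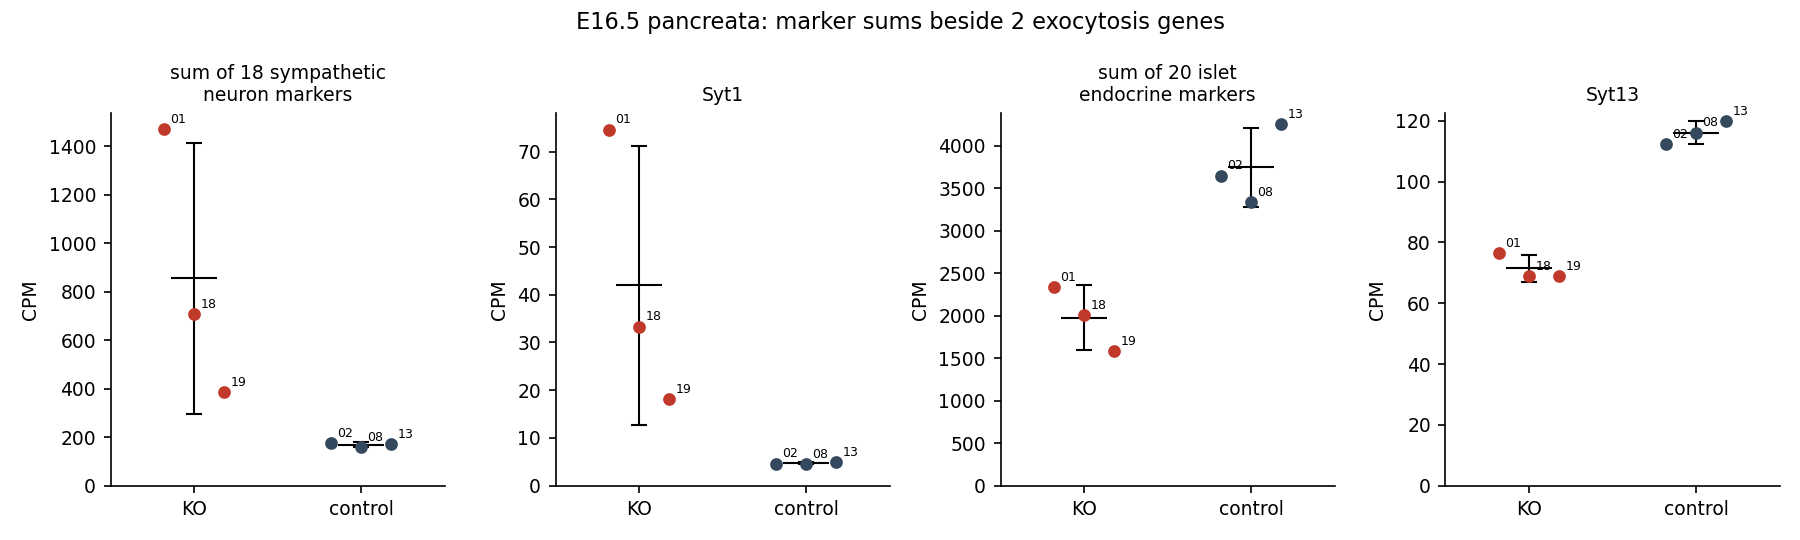
Summed CPM of 18 sympathetic neuron markers and of 20 islet endocrine markers beside the CPM of Syt1 and Syt13 in the 3 KO and 3 control pancreata, with each point a library, the mean as a line and the SD as bars. The order of the KO libraries is the same for the neuron markers and for Syt1, and KO libraries lie below controls for the endocrine markers and for Syt13.

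The members were also split by their level in all 10 islet libraries, KO and control, at the median of 8.216 CPM per kb over the 71 tested at E16.5. Of the 36 at or above it, 2 were higher in KO pancreata (Syt4 and Syt11) and 3 were lower, and of the 35 below it 6 were higher and none lower. All genes tested, split at the same level, leaned the same way, with 1.97% higher and 4.32% lower of the 6229 at or above it, and 5.03% higher and 1.5% lower of the 8685 below it.

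Other genes of exocytosis, such as the exocyst, synapsin and SV2 genes, were followed from a list of 51, of which 50 are in the tables and none are among the 75. At E16.5, 9 of the 50 were higher in KO and 4 lower, where 3.75% of all genes were higher and 2.68% lower. Rph3al, a granule effector of Rab27, had 34.8, 36.1 and 34.3 CPM in KO pancreata 01, 18 and 19, against 51.2, 52.7 and 50.4 CPM in control pancreata 02, 08 and 13, which is -0.55 on the log2 scale (SE 0.0582, adjusted p = 0.0166). Baiap3, a relative of Unc13 on dense-core vesicles, had a log2 fold change of -0.65 (adjusted p = 0.0237), Rab27a, a GTPase of granules, of -0.32 (0.0239), and Sv2c, a synaptic vesicle protein, of 2.72 (0.0266). In islets 0 of 49 passed, with 5 at an unadjusted p under 0.05, as 7.18% of all genes were.

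In 60-week islets, 0 of 67 tested members were higher in KO and 1 was lower, or 1.49% past the threshold, where 0.155% of the 14219 genes tested passed (0.113% higher, 0.0422% lower). The lower gene was Mctp1. At an unadjusted p under 0.05 there were 4 of 67 members, near the 7.18% of all genes, and the median log2 fold change was -0.02, against -0.00 over all genes. No marker list above had a gene past the threshold in islets. Sympathetic neuron markers summed to 222 to 345 CPM in KO islets and 217 to 303 CPM in control islets, Tfap2b being at 0 in all 10. Th alone contributed 48.0 to 203 CPM to the sums in KO islets and 40.0 to 139 CPM in control islets. The sums therefore do not show the direction of most markers. Of the 14 tested, 12 had a log2 fold change below 0 and 2 above 0, with a median of -0.25.

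Mctp1 had 5.47, 5.82, 4.78, 4.56 and 5.21 CPM in KO islets 055, 122, 803, 812 and 845, against 7.05, 7.30, 8.01, 7.32 and 8.87 CPM in control islets 052, 826, 829, 857 and 858. The highest KO library lay below the lowest control. Mctp1 was 1 of 2 members, both lower in KO, whose groups did not overlap, where 1.55% of all genes did not overlap (0.781% higher, 0.774% lower). Mctp1 differed by -0.58 on the log2 scale (SE 0.0972, 95% interval -0.79 to -0.37, adjusted p = 0.0474). The call was lost without any single library, the adjusted p then lying between 0.0518 (without KO 122) and 0.163 (without KO 803), and with library totals (0.0579), while DESeq2 gave 0.000198. Its log2 fold change lay between -0.62 and -0.52 over the libraries left out.

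**Figure D4:**
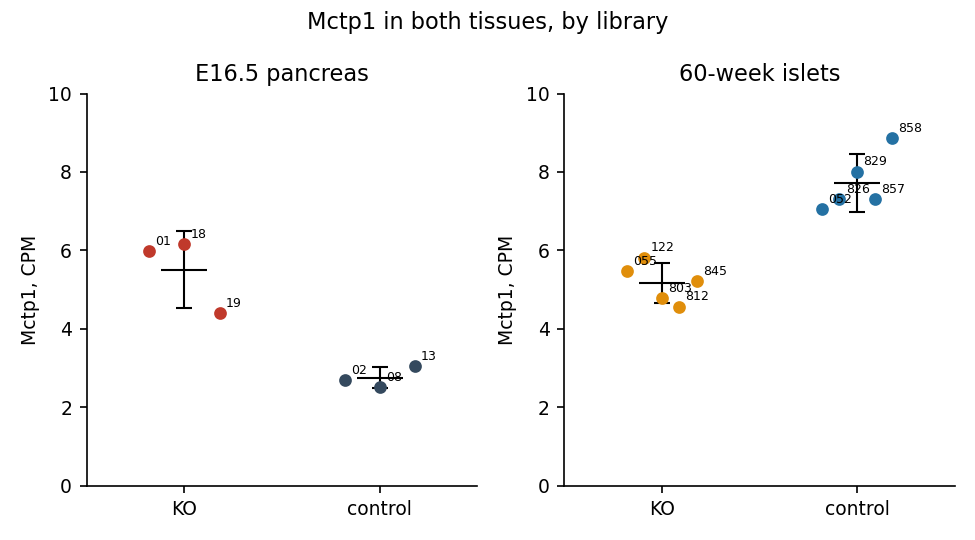
Mctp1 CPM in E16.5 pancreata (3 KO, 3 control) and 60-week islets (5 KO, 5 control), with each point a library named by its animal number, the mean as a line and the SD as bars, and vertical axes from 0. KO libraries lie above controls in pancreata and below them in islets.

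The genes that islets have at the highest level were nearly equal between genotypes. Syt13 had 1365, 1340, 1191, 1348 and 1318 CPM in KO islets 055, 122, 803, 812 and 845, against 1420, 1308, 1478, 1370 and 1314 CPM in control islets 052, 826, 829, 857 and 858, a log2 fold change of -0.07 (95% interval -0.18 to 0.03). The groups overlapped and the interval included 0. Syt7 averaged 493 ± 7.95 CPM in KO and 494 ± 14.1 CPM in control islets (SD, n = 5 each), a log2 fold change of -0.00 (-0.08 to 0.07). Cplx2 had -0.02 (-0.11 to 0.08), Vamp2 0.01 (-0.11 to 0.14), Rab3a 0.01 (-0.11 to 0.12), Snap25 0.07 (-0.02 to 0.15), Syt4 -0.09 (-0.30 to 0.11) and Sytl4 -0.09 (-0.21 to 0.03) as log2 fold changes.

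Intervals were wide for several members that had passed at E16.5. Cplx1 had -0.47 (-1.39 to 0.44), Syt1 -0.30 (-0.76 to 0.15), Doc2b -0.37 (-0.79 to 0.04) and Rab3c -0.08 (-0.51 to 0.35) as log2 fold changes.

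Control islet 857 stood highest of the 5 controls for several of the genes that were higher in KO pancreata. It had 28.8 CPM of Syt1, 7.28 of Cplx1, 45.4 of Rab3c and 9.86 of Doc2b, and the other controls had 14.7 to 23.1, 2.12 to 5.23, 21.8 to 34.5 and 4.88 to 8.40 CPM of the same genes. Its Dbh level was 1.18 CPM, against 0 to 0.0792 in the other controls. The part of neurons in these values was not tested.

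**Figure D5:**
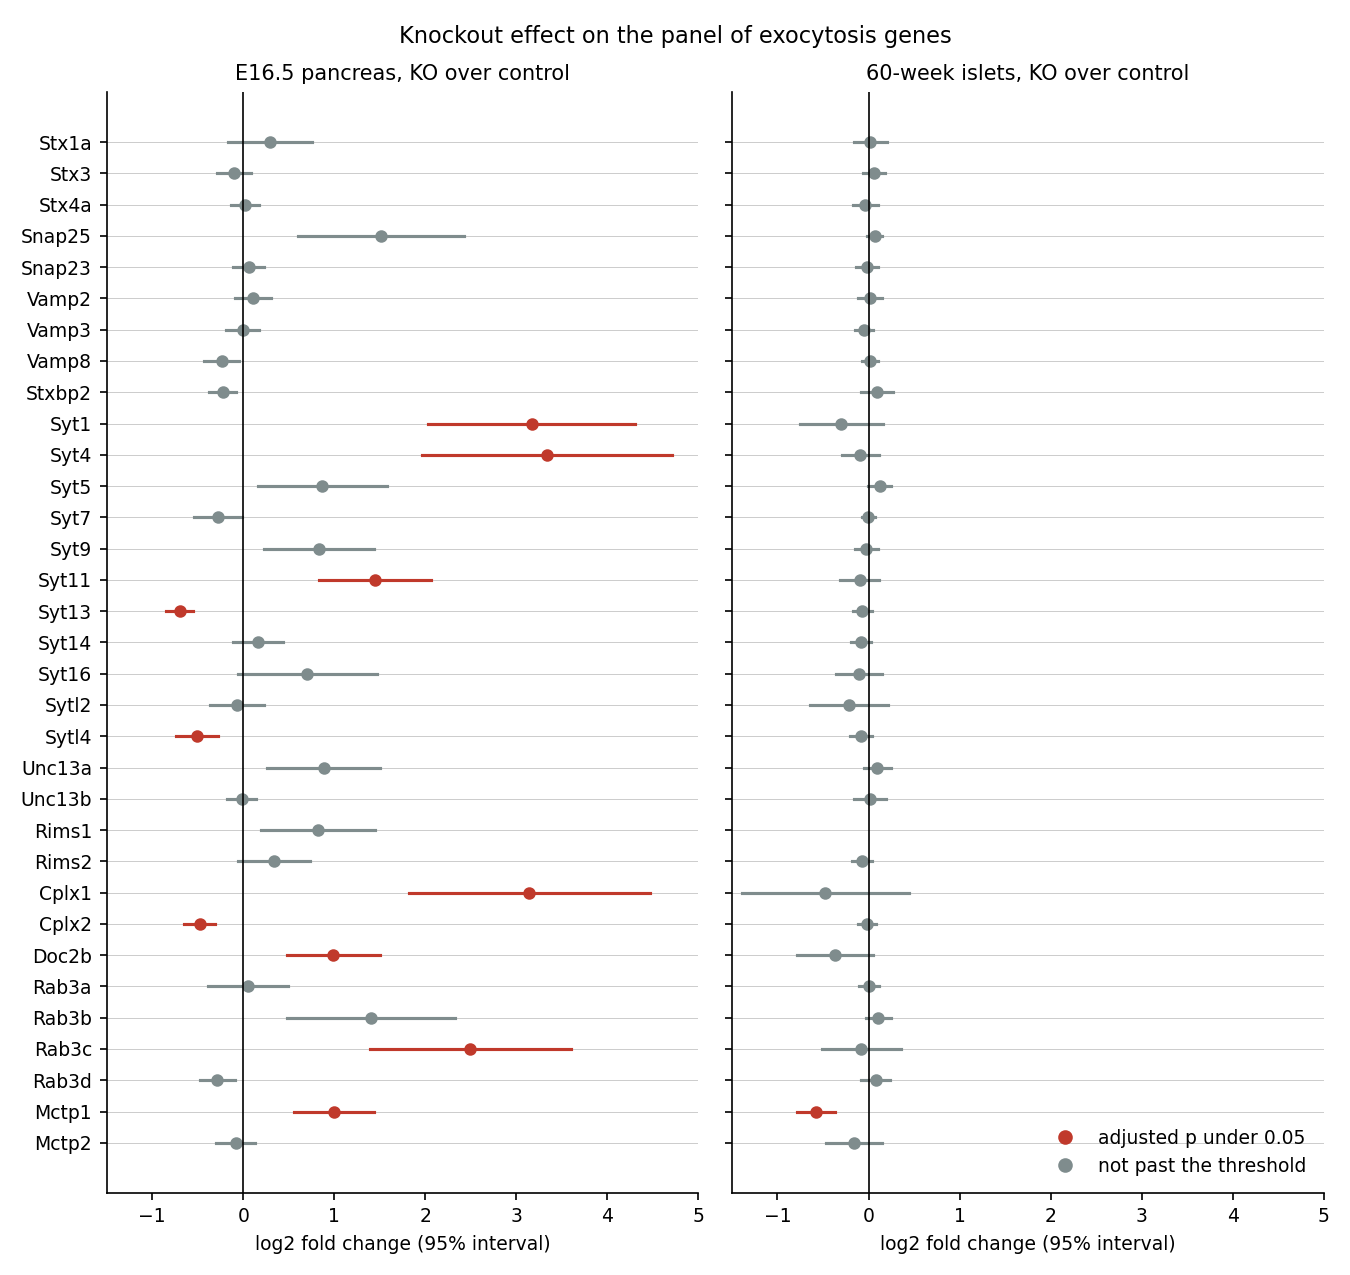
Log2 fold change of KO over control with its 95% interval for 33 members followed by name, in E16.5 pancreata (left) and 60-week islets (right, where Rims1 was not tested), in red where the adjusted p is under 0.05. The pancreas plot shows 7 genes higher and 3 lower in KO past the threshold, and in islets Mctp1 lies alone past the threshold, with most other intervals narrow and around 0.

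Whether the KO effect differed between the tissues was tested in a fit over all 16 libraries, as the log2 fold change in islets minus that in pancreata. Of 72 members, 3 had a higher effect in islets and 11 a lower one, or 19.4% past the threshold, where 7.19% of all 15823 genes passed (3.94% higher, 3.25% lower). With scaling to pan-epithelial genes 41 members passed, all lower, with limma-voom 8, and without control pancreas 02, 9. Of the 11 members past the threshold at E16.5, 10 passed here. Mctp1 had opposite directions, with a difference of -1.56 (SE 0.192, adjusted p = 0.000424).

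The synaptotagmins Syt4 and Syt1 had differences of -3.41 (SE 0.510, adjusted p = 0.00154) and -3.46 (SE 0.527, adjusted p = 0.00171), and Syt11 had -1.53 (adjusted p = 0.00381). Cplx1 had -3.60 (adjusted p = 0.0167), Rab3c -2.56 (adjusted p = 0.00801) and Doc2b -1.35 (adjusted p = 0.0183). Of the members lower in KO pancreata, Syt13 had a difference of 0.65 (SE 0.0847, adjusted p = 0.000644), Cplx2 of 0.48 (adjusted p = 0.00447) and Sytl4 of 0.44 (adjusted p = 0.0242). Snap25 (-1.43, adjusted p = 0.0176), Rab3b (-1.29, 0.0309), Syt17 (-1.97, 0.0405) and Syt9 (-0.85, 0.0339) passed here without passing in either tissue alone. With single libraries left out, Syt1, Syt4, Syt11, Syt13, Mctp1, Rab3c and Cplx2 kept their calls each time. With limma-voom the calls of Rab3c (adjusted p = 0.0632), Cplx1 (0.0824), Snap25 (0.0507), Syt9 (0.0598), Rab3b (0.0994) and Syt17 (0.1201) were lost. Without control pancreas 02 the adjusted p was 0.0557 for Cplx1, 0.0623 for Doc2b, 0.0643 for Snap25, 0.1007 for Rab3b, 0.0581 for Syt17 and 0.0962 for Syt9. Without KO pancreas 01 it was 0.0571 for Cplx1, 0.0507 for Doc2b, 0.0927 for Rab3b and 0.1468 for Syt17, and the difference of Rab3b was then -0.74 and that of Syt17 -1.15. Without KO pancreas 01 the differences of Syt4 (-2.51), Syt1 (-2.74), Cplx1 (-2.90) and Rab3c (-1.91) were also smaller, by over 1.5 times as linear folds. Sytl4 lost its call without control pancreas 13 (adjusted p = 0.0615), KO pancreas 18 (0.0504) or KO pancreas 19 (0.0539). Syt17, Syt9 and Rab3b lost theirs without control pancreas 08 (0.1035, 0.0613 and 0.0830), and Syt17 and Syt9 without control pancreas 13 (0.0896 and 0.0724). With an islet library left out, losses were seen for Syt17, Syt9 and Rab3b, with adjusted p between 0.0502 and 0.0723. With the pan-epithelial scaling the differences of Syt13 (0.22, adjusted p = 0.0675), Cplx2 (0.05, 0.728) and Sytl4 (0.02, 0.933) did not pass. Tissue, age, dissection, table and any difference in sex cannot be told apart in these differences.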

How the data were processed

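Libraries of polyadenylated RNA from 16 samples (Kapa HyperPrep, per the labels) were sequenced. Raw counts per gene, as whole numbers, are what the authors deposited. HTSeq 0.11.1, STAR 2.6.0, edgeR, Trimmomatic and mm10 appear, without roles, per the submitters' processing notes. No source used here gives strand use or annotation release. Coordinates and gene lengths are those of the deposited tables.

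The 75 members and all lists were chosen with earlier results of these data known. Named were Tff2, every member past the threshold in a KO comparison, a panel of 35 members, up to 4 genes per list, and genes at the extremes of level. The motifs searched and the libraries singled out were chosen after values were seen.

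The main test was edgeR 4.0.16 (quasi-likelihood, TMM, filterByExpr defaults, R 4.3.3) on all genes, within each tissue for KO against control and over all 16 libraries for the differences and the tissue contrast, with Benjamini-Hochberg adjustment and a threshold of 0.05. SE derives from the fold change and F. CPM are TMM-scaled within a tissue unless stated. The fits were tested on simulated data. Alternatives were DESeq2 1.42.0, limma-voom (limma 3.58.1), other scalings and filters, and each library left out.

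No pair of replicates agreed within sampling noise (chi-square per degree of freedom at least 4.90 in pancreata and 6.28 in islets). The library names give no pairing between groups, so libraries were treated as unpaired. Intervals cover the spread between libraries, and p-values the spread between these animals. Exons of 11 members, among them Stx4a, Unc13a, Rab3a and Rab3b, overlap another gene with deposited counts on the opposite strand (GENCODE M21), so their reads may be shared. Exons of further members, among them Doc2b, Syt4 and Syt7, overlap an opposite-strand gene without deposited counts. Results of 2 members are not reported here by name, though they enter every count of members. No per-sample column was left unmapped.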

Additional observations from a re-analysis of the deposited data

Results flagged for a closer look

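The KO effect in islets minus that in pancreata, tested as an interaction over all 16 libraries, passed for 14 members. On the log2 scale the difference was -3.60 for Cplx1, -3.46 for Syt1, -3.41 for Syt4, -2.56 for Rab3c, -1.97 for Syt17, -1.56 for Mctp1, -1.53 for Syt11, -1.43 for Snap25, -1.35 for Doc2b, -1.29 for Rab3b and -0.85 for Syt9. It was 0.65 for Syt13, 0.48 for Cplx2 and 0.44 for Sytl4. Mctp1 is the only one that passed in both tissues, higher in KO pancreata and lower in KO islets.

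Among 66 groups of 5 islet libraries, 3 held a library far from the other 4, where chance flags about 1 in 20 groups. Snap25 stood at 224.9 CPM in KO islet 055, against 206.4 to 210.6 CPM in the other KO islets. Sytl2 stood at 3.51 CPM in KO islet 122, against 5.56 to 6.18 CPM, and Syt13 at 1191 CPM in KO islet 803, against 1318 to 1365 CPM.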

How the results depend on the processing

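At E16.5 the count of 11 members was 10 to 12 under RLE scaling, library totals and either filter. It was 17 with DESeq2, 5 with limma-voom and 48 (47 higher, 1 lower) scaled to the pan-epithelial genes, and 0 to 14 with a library left out. In islets the count of 1 became 0 with library totals, and was 0 with each library left out (range 0 to 0). The difference test's 14 became 8 with limma-voom and 41 (0 higher, 41 lower) with the pan-epithelial scaling, and 9 to 19 with a library left out, the lowest without control 02. The tissue contrast's 62 members ranged from 60 to 64, with library totals moving the median of all genes to -0.25. The cause of these changes was not tested.

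Fold changes that turned sign were, in the comparison concerned, not past the threshold in the main fit. At E16.5 these were, with library totals, Vamp3 (0.0721), Sytl2 (0.0072) and Unc13b (0.061); Vamp3 was 0.0039 with RLE, 0.0021 with 1 CPM as the filter and 0.0039 with DESeq2. With the pan-epithelial scaling they were Vamp3 (0.41), Unc13b (0.40), Sytl2 (0.34), Mctp2 (0.33), Stx3 (0.31), Stxbp2 (0.19), Vamp8 (0.18), Syt7 (0.13) and Rab3d (0.13). Of these, Vamp3 (lowest adjusted p = 0.00948), Unc13b (0.003645), Mctp2 (0.0360), Stx3 (0.0310) and Rab3d (0.02595) passed in 1 alternative each, and in 0 with a library left out. In islets the fold changes that turned sign were Cplx2 (0.0061), Snap23 (0.0068) and Syt7 (0.0188) with library totals. With a library left out at E16.5, Stx4a ranged from -0.0106 to 0.0578, Unc13b from -0.0779 to 0.0369, Vamp3 from -0.0837 to 0.0693, Rab3a from -0.21 to 0.20 and Sytl2 from -0.18 to 0.0113. In islets Stx4a ranged from -0.0603 to 0.0043, Syt9 from -0.0602 to 0.0217, Unc13b from -0.033 to 0.0694, Rab3a from -0.0194 to 0.039, Snap23 from -0.0476 to 0.0289, Syt7 from -0.0148 to 0.0114, Stx1a from -0.0301 to 0.0598, Vamp2 from -0.0323 to 0.046, Cplx2 from -0.0425 to 0.0078 and Rab3c from -0.19 to 0.10.

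Under voom, Syt1 (adjusted p = 0.0592), Syt4 (0.0862), Cplx1 (0.0772), Rab3c (0.0855) and Doc2b (0.0588) did not pass at E16.5, each still higher in KO. Depth limits the low genes: Cplx1 had under 10 CPM in most libraries, and Rims1 could not be tested in islets. No paired analysis was run, because the library names give no pairing between groups.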
